A study of Rattus norvegicus with 20 samples.

Results

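The genes described here make cholesterol and fatty acids or control their synthesis. After 24 h above a feeder layer of cortical cells, 22 of the 31 measured genes fell in rat cultures panned for subplate neurons and none rose. This was in a limma fit at an adjusted p under 0.05, where 7.71% of all named genes fell and 2.78% rose. The RNA was that of whole cultures, and markers of other cells moved with coculture as well. The falls ran from the first steps of the sterol path to its last ones and took in the fatty acid synthase gene, while the elongase and most desaturase genes did not pass the test. After 96 h the same comparison gave 13 falls and 1 rise, against a background in which 41.4% of all named genes fell and 7.44% rose. As a set the genes then no longer stood apart from the array as a whole. The direction at 96 h depended on the scale, with 4 falls and 7 rises after cyclic loess scaling. With the level of the spiked hybridisation controls as a covariate, 1 gene fell and 1 rose at 96 h.

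The list held 33 rat genes, and a gene was taken up where the gene symbol of a probe set in the annotated table of expressed probe sets named it. Of these, 31 were found among the 8134 named genes, through 42 probe sets. The deposited symbol matched for 37 probe sets, and an older symbol or the Entrez identifier for 5 (Sc4mol for Msmo1, for example). A single probe set stood for 21 genes, and 10 genes had several. Acss2 and Fads2 were not measured. The 31 genes were ordered by role, with 8 in the steps to squalene, 10 in the steps from squalene to cholesterol, 5 among regulators and sterol transport, 4 in acetyl-CoA supply and fatty acid chain synthesis, and 4 in elongation and desaturation.

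The 20 arrays came from neurons cocultured for 24 h, control neurons at 24 h, neurons cocultured for 96 h and control neurons at 96 h, with 5 biological replicates in each group. The cells of all groups were taken from the back part of the neocortex of rat pups at embryonic day 17 and panned on an antibody to p75 NTR, the low-affinity neurotrophin receptor. They were plated on glass coverslips at 22100 cells per well and kept free of serum in Neurobasal with B27 and chondroitin sulfate A. For coculture the coverslips stood on wax dots above 650000 cortical cells per well, which were the cells that had not bound in the panning. Control wells had the wax dots and the medium without cells. All wells were fed at 4 days in vitro, the coverslips were added a day later, and they were not fed again. RNA came from the coverslips alone, generally 6 pooled per condition, and 100 ng of it went through 2 rounds of amplification. The cultures were thus a panned population and not single-cell clones, and RNA of other cells that bound in the panning is part of each value.

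Each value is a linear ratio to the probe set's own median over the 20 arrays. A ratio of 1 is therefore the typical level of that gene, and the level of one gene cannot be set against that of another. Values in single arrays are given below as ratios in the order of replicate numbers 1 to 5. Differences are coculture minus control on the log2 scale with their standard error (SE), where -1 means a level 2-fold lower, and adjusted p is limma's after Benjamini-Hochberg adjustment over the 8134 genes.

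Several features of the arrays moved with coculture. Over all named genes the median difference, cocultured minus control on the log2 scale, came to -0.19 at 24 h and -0.34 at 96 h. The spiked hybridisation controls, 18 probe sets that carry no rat RNA, averaged 0.32 ± 0.65 in coculture and -0.54 ± 0.67 in control at 24 h, and 0.70 ± 0.64 in coculture and -0.63 ± 0.66 in control at 96 h (log2, SD, n = 5 each). They were higher in coculture in all 5 same-numbered pairs at both times, and the group difference had p = 0.0794 at 24 h and p = 0.0238 at 96 h by a two-sided exact permutation test. The 3′ minus 5′ signal of Gapdh, a measure of RNA length, was higher in cocultured arrays by 0.14 at 24 h and 0.22 at 96 h, with p = 0.325 and p = 0.127 in two-sided exact permutation tests. It was higher in coculture in 4 of 5 same-numbered pairs at both times, and none of these permutation tests used the pairing. The cocultured arrays of replicate 5 stood apart from the rest, with a spread over all genes (SD of log2 ratios) of 0.684 at 24 h and 0.740 at 96 h, where the medians of all 5 cocultured arrays were 0.269 and 0.330.

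Markers of other cells moved as well. All 6 measured radial glia markers of 9 listed rose at both times, and their mean log2 ratio ran from 0.46 to 1.21 in coculture, against -1.78 to -0.64 in control at 24 h. At 96 h it ran from 0.67 to 1.26 in coculture and from -1.67 to -1.23 in control. Of 8 measured astrocyte markers of 10 listed, 2 rose at 24 h and 5 at 96 h, with a mean of -0.021 to 0.85 in coculture and -0.69 to -0.065 in control at 24 h, and of 0.61 to 1.36 in coculture and -0.70 to -0.44 in control at 96 h. Of 7 oligodendrocyte lineage markers of 10 listed, 3 rose at both times, with a mean of 0.33 to 0.77 in coculture and -1.08 to -0.54 in control at 24 h, and of 0.22 to 1.07 in coculture and -1.28 to -0.54 in control at 96 h. None of 8 listed microglia markers was among the named expressed genes. Col1a1, the measured gene of 8 listed for fibroblasts and vessels, did not pass the test, at 0.15 at 24 h and 0.18 at 96 h. Of 8 listed subplate markers, Nr4a2, Ccn2 and Tle4 were measured, and Ngfr, which encodes the receptor used for panning, was not. The mean log2 ratio of the 3 ran from -1.81 to -0.13 in coculture and from -0.30 to 0.78 in control at 24 h, and from -1.80 to 0.16 in coculture and -0.28 to 0.87 in control at 96 h. It was lower in coculture in all 5 pairs at both times, with a mean difference of -1.004 at 24 h and -0.98 at 96 h. None of the 3 was called at 24 h, where 2 had an unadjusted p under 0.05 and 3 fell with the replicate block, beside 38.7% of all named genes. At 96 h Ccn2 (-1.84) and Tle4 (-1.13) fell, beside 41.4% of all named genes. With the level of the hybridisation controls as a covariate, neither passed limma's test at 96 h (adjusted p = 0.651 and 0.444). The median of the 3 in that fit was -0.48 at 24 h and 0.21 at 96 h. All 8 pan-neuronal markers were measured. Of these, Rbfox3 rose at 24 h, and at 96 h Rbfox3 rose and Nefl and Nefm fell, beside 7.44% of all named genes that rose and 41.4% that fell. With the covariate, Nefl (adjusted p = 0.0553) and Nefm (adjusted p = 0.542) no longer passed at 96 h. In that fit 3 of the 8 rose and 0 fell at 96 h, beside 9.39% and 9.42% of all named genes. The mean of the 8 as deposited was lower in coculture in all 5 pairs at both times, with a mean difference of -0.17 at 24 h and -0.43 at 96 h. The part of these markers in the differences below was not tested. In RNA of whole cultures, fewer cells of a type and less RNA per cell cannot be told apart.

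Cholesterol is built from acetyl-CoA through mevalonate and farnesyl pyrophosphate to squalene, whose chain is then closed into a ring and trimmed in a row of steps. The SREBP transcription factors are held in the endoplasmic reticulum by Insig proteins when sterols are plentiful, and are cut free when sterols run short, after which they turn on most genes of both paths. In the brain, cholesterol is made locally, since plasma lipoproteins do not pass the blood-brain barrier, and glia release it on particles that carry apolipoprotein E.

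At 24 h most genes of the sterol path fell in coculture, and so did some genes of the fatty acid path. Beside the 22 falls of 31 genes and no rise stood a background of 7.71% of all named genes that fell and 2.78% that rose. The median difference of the 31 genes was -0.71 (log2), against -0.19 over all named genes, and 27 of the 31 lay below the median of all genes. In 21 genes every cocultured array lay below every control array, an order that 6.09% of all named genes showed, and no gene had every cocultured array above, an order of 2.25% of all named genes. An unadjusted p under 0.05 was reached by 24 genes, all lower in coculture. Within same-numbered pairs, 25 genes were lower in coculture in all 5 pairs, as was the median of all named genes. The share over all named genes was not counted for this order or for the unadjusted p.

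The roles differed in how many genes fell at 24 h. In the steps to squalene 6 of 8 genes fell, with a median difference of -1.01, and from squalene to cholesterol 9 of 10 fell, with a median of -0.98. Among regulators and transport 3 of 5 fell (median -0.50), in acetyl-CoA supply and chain synthesis 3 of 4 (median -0.73), and in elongation and desaturation 1 of 4 (median -0.18). Early and late sterol steps thus had nearly the same median, and the median of elongation and desaturation lay at that of all genes. Differences between these roles were not tested. With the replicate number as a block, 25 genes fell and 1 rose, beside 38.7% and 9.2% of all named genes, and with the level of the hybridisation controls as a covariate 19 fell and none rose, beside 4.67% and 6.85%. With block and covariate together, where the covariate was higher in coculture in every pair, 1 gene (Pmvk) fell, beside 0.332% of all named genes that fell and 0.209% that rose. The median difference of the 31 genes in that fit was -0.89, and Mvd was at -1.74 (adjusted p = 0.0965). Single settings ended few calls at 24 h. The covariate ended those of Fdps, Nsdhl and Acly, cyclic loess scaling those of Sqle, Insig1 and Scd, and equal array medians those of Srebf2 and Scd. A fit of the compared groups alone ended 4 calls, and the use of each gene's first probe set ended 2.

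**Figure D1:**
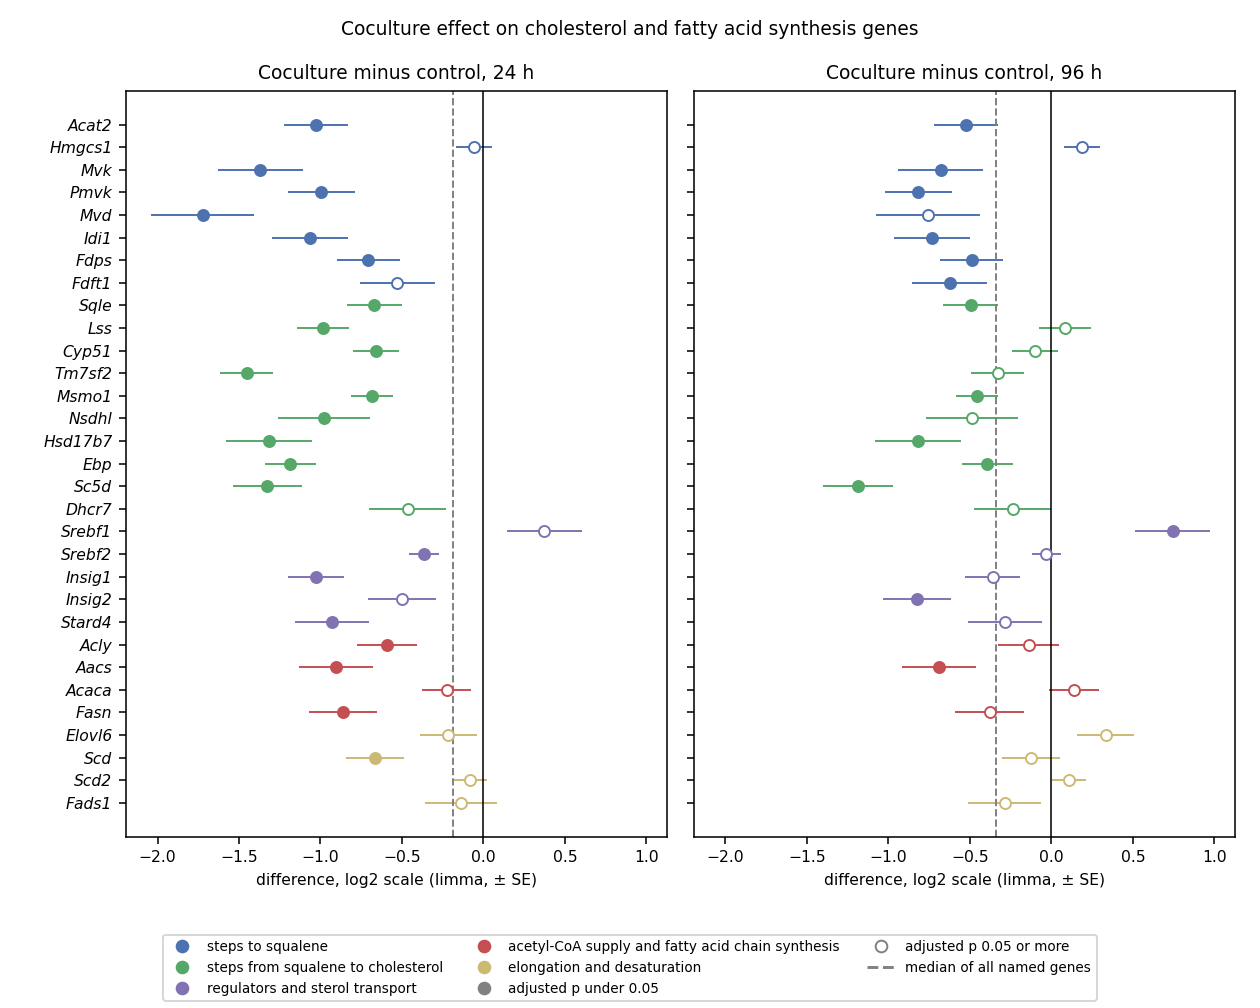
Difference between coculture and control (log2, x axis) at 24 h (left) and 96 h (right) for the 31 genes in pathway order (y axis). Points are limma estimates with bars of ± SE, coloured by role and filled where adjusted p is under 0.05, and the dashed line is the median of all named genes, at -0.19 (24 h) and -0.34 (96 h). Most points at 24 h lie left of the dashed line, while at 96 h they lie on both sides of it.

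The steps to squalene held the largest fall of the 31 genes at 24 h. Mvd, which decarboxylates mevalonate pyrophosphate to isopentenyl pyrophosphate, had ratios of 0.364, 0.527, 0.453, 0.427 and 0.181 in coculture at 24 h, against 1.06, 1.52, 1.497, 1.26 and 0.866 in control. No cocultured array reached the lowest control array, and replicate 5 was the lowest in both groups. The difference was -1.72 ± 0.32, a 3.30-fold lower level, with adjusted p = 0.00179. At 96 h its ratios were 0.826, 1.33, 1.06, 0.838 and 0.318 in coculture and 1.29, 1.6, 1.62, 1.37 and 0.941 in control. The groups now overlapped, and the difference of -0.76 ± 0.32 did not pass the test (adjusted p = 0.0546, or 0.000129 with the replicate block).

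Mevalonate kinase (Mvk) and phosphomevalonate kinase (Pmvk) carry out the phosphorylations just before that step. Mvk had ratios of 0.400, 0.669, 0.577, 0.507 and 0.286 in coculture at 24 h, against 1.06, 1.44, 1.47, 1.45 and 0.797 in control, a difference of -1.37 ± 0.26 (adjusted p = 0.00234). Its 96 h ratios were 0.768, 1.24, 1.04, 0.885 and 0.455 in coculture and 1.29, 1.35, 1.49, 1.69 and 0.957 in control, -0.68 ± 0.26 with adjusted p = 0.0374. Mvk thus kept apart at 24 h and overlapped at 96 h, and its 96 h difference was 0.17 with the hybridisation covariate. For Pmvk the ratios at 24 h were 0.492, 0.750, 0.759, 0.692 and 0.442 in coculture and 1.03, 1.59, 1.44, 1.23 and 0.929 in control, and at 96 h 0.803, 1.03, 0.974, 0.846 and 0.517 in coculture and 1.25, 1.61, 1.62, 1.61 and 1.14 in control. Its groups did not overlap at either time. It fell by 0.99 at 24 h (adjusted p = 0.00402) and by 0.82 at 96 h (adjusted p = 0.00402).

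Acat2, the cytosolic thiolase that joins acetyl-CoA units at the head of the path, had 0.605, 0.696, 0.699, 0.586 and 0.398 in coculture at 24 h, against 0.770, 1.49, 1.33, 1.28 and 1.24 in control. The control of replicate 1 was the lowest control and still above every cocultured array. The difference was -1.03 ± 0.19 (adjusted p = 0.0022) at 24 h and -0.52 ± 0.19 (adjusted p = 0.0322) at 96 h, where cyclic loess scaling turned it to 0.098. Idi1, the isomerase that makes dimethylallyl pyrophosphate, had 0.586, 0.683, 0.600, 0.585 and 0.302 in coculture at 24 h and 0.951, 1.26, 1.13, 1.10 and 1.14 in control. Replicate 5 was far below the other cocultured arrays, and none overlapped with control. Idi1 fell at 24 h (-1.06 ± 0.23, adjusted p = 0.00669) and at 96 h (-0.73 ± 0.23, adjusted p = 0.0151), and after cyclic loess its 96 h difference was 0.14.

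Fdps, which makes farnesyl pyrophosphate, the last product shared with other isoprenoids, had 0.746, 0.912, 0.840, 0.822 and 0.418 in coculture at 24 h, against 1.12, 1.18, 1.19, 1.25 and 1.16 in control. It fell at both times, by 0.71 at 24 h (adjusted p = 0.0249) and by 0.49 at 96 h (adjusted p = 0.0431). Both calls were among the least firm. At 24 h the call was lost without cocultured replicate 5 or without control replicate 2, 3 or 4, where adjusted p reached 0.0643. The 96 h call was lost without 10 of the 20 arrays in turn (adjusted p up to 0.148), and after cyclic loess the difference was 0.054. Fdft1, squalene synthase, commits farnesyl pyrophosphate to sterols. Its ratios at 24 h were 0.801, 1.09, 0.997, 0.990 and 0.486 in coculture and 1.01, 1.25, 1.26, 1.40 and 1.17 in control, which overlap. It did not pass the test at 24 h (-0.53 ± 0.23, adjusted p = 0.13, or 0.0105 with the replicate block) and fell at 96 h (-0.62 ± 0.23, adjusted p = 0.0311). Its 2 probe sets, tested singly, were at -0.89 (adjusted p = 0.00906) and -0.36 (adjusted p = 0.215) at 96 h. The 96 h call was lost without 5 of the 20 arrays in turn (adjusted p up to 0.106), and the difference was -0.031 with the hybridisation covariate.

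Hmgcs1, the cytosolic HMG-CoA synthase, stood apart from its neighbours in the path. Its ratios at 24 h were 1.0, 0.989, 1.07, 1.004 and 0.961 in coculture and 0.906, 1.11, 0.987, 0.985 and 1.29 in control, with the cocultured arrays inside the range of the controls. The difference was -0.061 ± 0.11 (adjusted p = 0.718) at 24 h and 0.19 ± 0.11 (adjusted p = 0.154) at 96 h, where 4 of 5 pairs were higher in coculture. Hmgcs1, Scd2 and Fads1 had the 3 smallest differences of the 31 genes at 24 h. Scaling to equal array medians, or leaving out replicate 5 in all groups, made the 96 h difference of Hmgcs1 a call upwards.

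**Figure D2:**
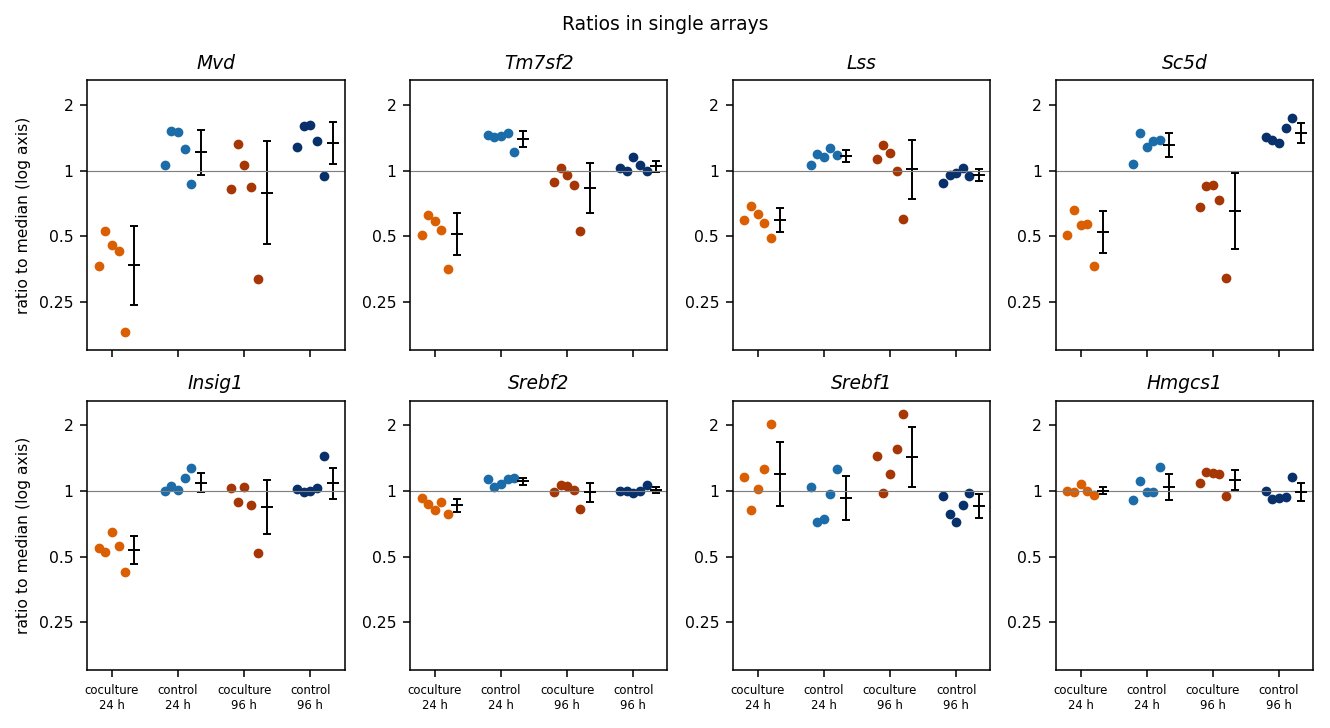
Ratio to the probe set median (y axis, log scale) of 8 genes in single arrays, for coculture and control at 24 h and at 96 h (x axis). Points are arrays in the order of replicate numbers, and the bars beside them give the mean and SD of log2 ratios (n = 5). Mvd, Tm7sf2, Lss, Sc5d and Insig1 sit apart at 24 h, Sc5d also at 96 h, and Hmgcs1 overlaps at both times.

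The promoters of the 5 genes with the largest falls at 24 h among those with a promoter sequence follow with that of Hmgcs1, a gene of the same path that did not fall, so that sequences can be read beside the values. This set was chosen after the values were seen. The sequences are from RefSeq on build GRCr8 and run from 250 bases before to 50 after the start of each gene, on the gene's strand. Mvd lies at chr19:67414925-67415224 (minus strand), Mvk at chr12:47819454-47819753 (minus), Tm7sf2 at chr1:212789492-212789791 (minus), Sc5d at chr8:51538228-51538527 (minus), Hsd17b7 at chr13:84722705-84723004 (minus) and Hmgcs1 at chr2:53382054-53382353 (plus). Capitals mark CCAAT or its reverse complement ATTGG, the box bound by NF-Y, a factor known to act beside SREBPs.
Mvd: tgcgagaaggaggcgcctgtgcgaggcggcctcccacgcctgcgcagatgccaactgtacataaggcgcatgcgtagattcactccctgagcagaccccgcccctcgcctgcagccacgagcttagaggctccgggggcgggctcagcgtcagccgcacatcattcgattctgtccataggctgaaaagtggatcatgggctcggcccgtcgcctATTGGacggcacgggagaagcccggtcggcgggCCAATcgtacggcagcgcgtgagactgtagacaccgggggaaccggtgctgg
Mvk: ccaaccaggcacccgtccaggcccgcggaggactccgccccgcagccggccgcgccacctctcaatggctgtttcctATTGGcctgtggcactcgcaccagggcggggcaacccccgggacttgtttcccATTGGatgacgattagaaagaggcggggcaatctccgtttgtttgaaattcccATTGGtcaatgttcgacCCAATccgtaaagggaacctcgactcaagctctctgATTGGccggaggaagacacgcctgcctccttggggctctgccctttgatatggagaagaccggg
Tm7sf2: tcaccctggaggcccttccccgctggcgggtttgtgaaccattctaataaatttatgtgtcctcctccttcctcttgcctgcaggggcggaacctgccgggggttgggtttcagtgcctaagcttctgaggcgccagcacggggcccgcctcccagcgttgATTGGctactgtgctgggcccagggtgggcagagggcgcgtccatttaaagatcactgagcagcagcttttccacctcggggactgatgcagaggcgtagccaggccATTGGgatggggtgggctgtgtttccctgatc
Sc5d: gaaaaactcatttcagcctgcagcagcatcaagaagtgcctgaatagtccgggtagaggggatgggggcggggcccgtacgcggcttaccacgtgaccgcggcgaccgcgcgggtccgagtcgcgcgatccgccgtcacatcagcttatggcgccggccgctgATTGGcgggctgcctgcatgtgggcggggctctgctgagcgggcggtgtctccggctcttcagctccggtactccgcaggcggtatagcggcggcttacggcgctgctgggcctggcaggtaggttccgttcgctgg
Hsd17b7: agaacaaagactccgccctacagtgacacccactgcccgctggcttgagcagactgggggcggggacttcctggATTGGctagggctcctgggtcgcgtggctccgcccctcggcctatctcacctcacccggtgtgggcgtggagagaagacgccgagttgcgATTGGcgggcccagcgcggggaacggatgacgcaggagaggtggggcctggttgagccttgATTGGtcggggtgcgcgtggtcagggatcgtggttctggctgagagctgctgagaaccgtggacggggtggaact
Hmgcs1: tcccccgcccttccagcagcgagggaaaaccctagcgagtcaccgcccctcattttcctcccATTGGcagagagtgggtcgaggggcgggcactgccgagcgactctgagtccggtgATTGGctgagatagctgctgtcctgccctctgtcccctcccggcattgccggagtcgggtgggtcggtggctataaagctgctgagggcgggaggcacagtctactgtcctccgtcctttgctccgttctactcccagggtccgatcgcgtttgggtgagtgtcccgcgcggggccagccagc

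Promoter sequences of this kind were matched for 24 of the 31 genes. CCAAT, searched on both strands, stood in 19 of the 24 (79.2%), against 37.7% of all 27457 promoters of the same length and 38.2% of the 6680 promoters of measured genes. GGGCGG, the letters bound by Sp1, stood in 18 of 24 (75%), against 34.9% of all promoters and 64.7% of those of measured genes. CACGTG, an E-box, stood in 2 of 24 (8.33%), against 6.65% and 9.94%. TCACNCCAC, a core of the sterol regulatory element, was found in none of the 24, against 1.13% and 0.928%. Of the 18 matched genes that fell at 24 h, 14 held CCAAT, and of the 6 others 5 did, so the box did not part the genes by their call. Mvk and Nsdhl held the most copies, 5 each, 11 genes held several, and none of the 38 copies overlapped another of these motifs. Hmgcs1 and Mvd held 2 copies each. The matches describe letters in a window of 300 bases and say nothing of binding.

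From squalene onwards the falls at 24 h were as large. Tm7sf2, a reductase that removes the ring double bond left by Cyp51, had ratios of 0.508, 0.628, 0.588, 0.531 and 0.354 in coculture, against 1.47, 1.42, 1.44, 1.49 and 1.21 in control. The groups lay far apart, with a gap from 0.628 in the highest cocultured array to 1.21 in the lowest control. The difference of -1.45 ± 0.16 (adjusted p = 1.37e-05) was a 2.74-fold lower level and had the smallest p of the 31 genes. At 96 h the ratios were 0.890, 1.02, 0.959, 0.859 and 0.530 in coculture and 1.02, 1.0, 1.16, 1.06 and 1.0 in control, and the difference of -0.33 ± 0.16 did not pass the test (adjusted p = 0.0976, or 0.0119 with the replicate block).

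Sqle, the epoxidase that opens the sterol branch, had 0.683, 0.844, 0.750, 0.728 and 0.445 in coculture at 24 h, against 0.989, 1.17, 1.11, 1.10 and 1.01 in control, and did not overlap. It fell at 24 h (-0.67 ± 0.17, adjusted p = 0.0165) and at 96 h (-0.49 ± 0.17, adjusted p = 0.022). After cyclic loess it was at -0.35 at 24 h (adjusted p = 0.0795) and at 0.16 at 96 h. Lss, which closes the squalene chain into lanosterol, had 0.594, 0.687, 0.631, 0.573 and 0.491 in coculture at 24 h and 1.06, 1.19, 1.15, 1.27 and 1.19 in control. At 96 h the order was lost, with 1.13, 1.32, 1.204, 0.993 and 0.599 in coculture and 0.877, 0.952, 0.976, 1.03 and 0.944 in control. The cocultured arrays 1 to 3 were above all controls at 96 h and that of replicate 5 was below them. The difference was -0.98 ± 0.16 (adjusted p = 0.000487) at 24 h and 0.086 ± 0.16 (adjusted p = 0.661) at 96 h. Cyp51, which removes a methyl group from lanosterol, passed the test at 24 h and not at 96 h, at -0.66 ± 0.14 (adjusted p = 0.00557) against -0.10 ± 0.14 at 96 h (adjusted p = 0.55).

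Msmo1, Nsdhl and Hsd17b7 remove the remaining ring methyl groups in turn. Msmo1, the oxidase, had 0.716, 0.783, 0.784, 0.727 and 0.544 in coculture at 24 h, against 0.977, 1.22, 1.14, 1.08 and 1.27 in control, without overlap. It fell at 24 h (-0.68 ± 0.13, adjusted p = 0.00231) and at 96 h (-0.46 ± 0.13, adjusted p = 0.00849). Hsd17b7, the keto reductase, had 0.544, 0.632, 0.468, 0.558 and 0.378 in coculture at 24 h and 1.01, 1.59, 1.42, 1.44 and 0.982 in control. Every cocultured array was below every control. The differences were -1.32 ± 0.26 (adjusted p = 0.00343) at 24 h and -0.82 ± 0.26 (adjusted p = 0.0167) at 96 h. Nsdhl, the decarboxylating dehydrogenase, fell at 24 h (-0.98 ± 0.28, adjusted p = 0.0323). Its 2 probe sets gave -1.12 and -0.84, of which the second passed the test by itself, and the call of the gene was lost without cocultured replicate 1 or 5 or without control replicate 1, 2, 3 or 4 (adjusted p up to 0.0798). At 96 h Nsdhl was at -0.49 ± 0.28 (adjusted p = 0.151, or 0.0245 with the replicate block).

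Ebp moves a ring double bond and Sc5d, a desaturase, adds another. Ebp had 0.455, 0.653, 0.612, 0.531 and 0.406 in coculture at 24 h, against 1.06, 1.33, 1.14, 1.29 and 1.15 in control. The cocultured arrays were all below the controls, and the difference was -1.19 ± 0.16 (adjusted p = 6.03e-05). At 96 h Ebp had 0.812, 1.05, 1.02, 0.932 and 0.605 in coculture and 0.982, 1.21, 1.32, 1.24 and 0.981 in control, -0.39 ± 0.16 with adjusted p = 0.046. That call was lost without 11 of the 20 arrays in turn (adjusted p up to 0.15), and the difference was 0.28 after cyclic loess and 0.012 with the hybridisation covariate.

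Sc5d fell at both times by nearly the same amount. It had 0.504, 0.659, 0.564, 0.569 and 0.366 in coculture at 24 h, against 1.07, 1.49, 1.29, 1.37 and 1.38 in control. After 96 h the values were 0.678, 0.853, 0.859, 0.734 and 0.323 in coculture, against 1.42, 1.38, 1.34, 1.57 and 1.74 in control. No array of one group reached the other at either time, although replicate 5 was much lower than the other cocultured arrays. The difference was -1.33 ± 0.21 (adjusted p = 0.000454) at 24 h and -1.19 ± 0.21 (adjusted p = 0.000433) at 96 h, a 2.51-fold and a 2.28-fold lower level. It was the only one of the 31 genes that still fell at 96 h with the hybridisation covariate (-0.81, adjusted p = 0.0168). Its 2 probe sets differed in size, with -1.75 and -0.90 at 24 h and -1.65 and -0.73 at 96 h, and all of these passed the test. Dhcr7, one of the last reductases of the path, was the single gene of these 10 that did not pass the test at 24 h, at -0.47 ± 0.24 (adjusted p = 0.187, or 0.0328 with the replicate block). Its ratios overlapped, with 0.689, 1.002, 0.875, 0.902 and 0.399 in coculture and 0.868, 1.06, 1.05, 1.03 and 1.09 in control, and at 96 h it was at -0.24 ± 0.24 (adjusted p = 0.404).

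**Figure D3:**
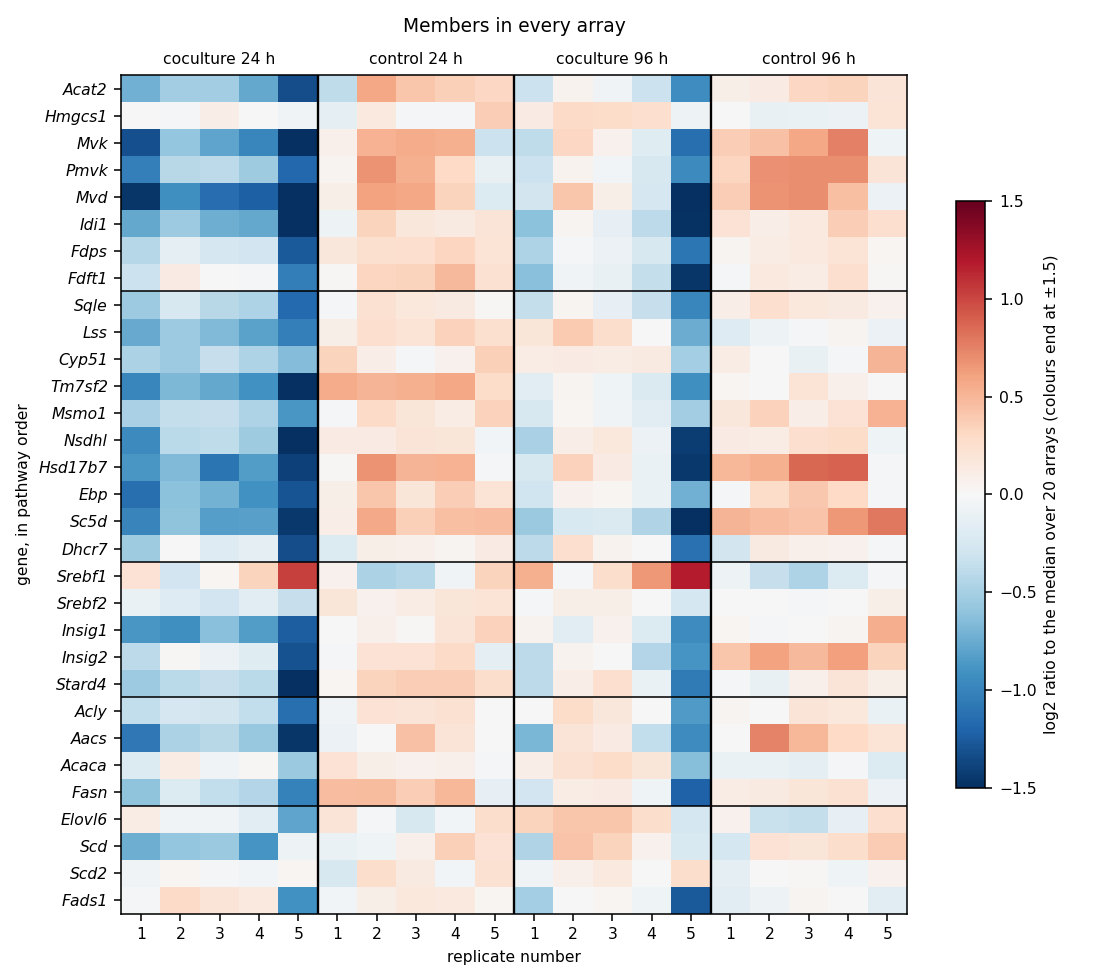
Log2 ratio to the probe set median (colour, blue low and red high, ending at ±1.5) of the 31 genes (rows, in pathway order, lines between roles) in all 20 arrays (columns, by group and replicate number). Cocultured arrays at 24 h are blue in most rows of the sterol path, and the cocultured arrays of replicate 5 are the darkest at both times.

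The regulators did not move as one. Insig1, which retains the SREBPs in the endoplasmic reticulum and is itself an SREBP target, had 0.548, 0.527, 0.646, 0.560 and 0.426 in coculture at 24 h, against 1.002, 1.05, 1.01, 1.15 and 1.27 in control. The groups were far apart, and the difference was -1.03 ± 0.17 (adjusted p = 0.000552). After cyclic loess it was -0.65 (adjusted p = 0.114). Later, at 96 h, Insig1 had 1.03, 0.887, 1.05, 0.866 and 0.521 in coculture and 1.02, 0.986, 0.998, 1.03 and 1.46 in control, which overlap, -0.36 ± 0.17 with adjusted p = 0.0825. Insig2, its relative, was the other way round in time, at -0.50 ± 0.21 (adjusted p = 0.116, or 0.00422 with the replicate block) at 24 h and -0.82 ± 0.21 (adjusted p = 0.00434) at 96 h. Its 96 h ratios of 0.759, 1.03, 1.001, 0.739 and 0.541 in coculture lay below all of 1.33, 1.51, 1.40, 1.53 and 1.26 in control. The 2 probe sets of Insig2, tested singly, were at -0.55 (adjusted p = 0.0506) and -1.10 (adjusted p = 0.00172) at 96 h. At 24 h they were at -0.21 and -0.79. With the hybridisation covariate the 96 h difference of the gene was -0.24 (adjusted p = 0.291).

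Srebf2, the gene of the SREBP that drives sterol synthesis, fell a little at 24 h. Its ratios were 0.932, 0.874, 0.819, 0.889 and 0.786 in coculture and 1.14, 1.04, 1.08, 1.13 and 1.15 in control, narrow ranges that did not overlap, and the difference was -0.37 ± 0.092 (adjusted p = 0.0161). After scaling to equal array medians it was -0.23 (adjusted p = 0.102), and at 96 h it was -0.03 ± 0.092 (adjusted p = 0.796). Srebf1, whose product acts more on fatty acid genes, was the one gene above 0 at 24 h. Its ratios were 1.17, 0.821, 1.02, 1.26 and 2.04 in coculture and 1.04, 0.721, 0.746, 0.967 and 1.26 in control, higher in coculture in all 5 pairs but overlapping between groups, 0.37 ± 0.23 with adjusted p = 0.27, or 0.00883 with the replicate block. Srebf1 rose at 96 h, with 1.45, 0.981, 1.201, 1.57 and 2.26 in coculture, all above 0.951, 0.785, 0.724, 0.867 and 0.976 in control, 0.75 ± 0.23 (adjusted p = 0.0129). With the hybridisation covariate that difference was 0.087 (adjusted p = 0.755). Stard4, which carries sterol between membranes, had 0.683, 0.753, 0.788, 0.756 and 0.337 in coculture at 24 h and 1.02, 1.26, 1.29, 1.29 and 1.196 in control. It fell at 24 h (-0.93 ± 0.23, adjusted p = 0.0136) and was at -0.28 ± 0.23 (adjusted p = 0.294) at 96 h.

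Among genes that feed and build the fatty acid chain, Fasn, the fatty acid synthase, had 0.656, 0.870, 0.774, 0.740 and 0.496 in coculture at 24 h, against 1.37, 1.39, 1.29, 1.41 and 0.922 in control. The control of replicate 5 was the lowest control and just above the highest cocultured array. Fasn fell at 24 h (-0.86 ± 0.21, adjusted p = 0.0138) and was at -0.38 ± 0.21 at 96 h (adjusted p = 0.136, or 0.00972 with the replicate block). Aacs, which activates acetoacetate for lipid synthesis, had 0.476, 0.722, 0.748, 0.674 and 0.364 in coculture at 24 h and 0.939, 1.001, 1.36, 1.15 and 0.999 in control. It fell at 24 h (-0.91 ± 0.23, adjusted p = 0.0156), a call lost without control replicate 3 (adjusted p = 0.0556). It fell at 96 h as well (-0.69 ± 0.23, adjusted p = 0.0183).

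Acly, which splits citrate into acetyl-CoA, had 0.777, 0.841, 0.826, 0.772 and 0.457 in coculture at 24 h, against 0.964, 1.16, 1.14, 1.17 and 0.994 in control, without overlap. Its fall of -0.59 ± 0.19 (adjusted p = 0.047) had the largest adjusted p of the 22 calls at 24 h and was lost without any of 15 of the 20 arrays (adjusted p up to 0.135). Acaca, the carboxylase that makes malonyl-CoA, did not pass the test. It had 0.866, 1.08, 0.962, 1.01 and 0.682 in coculture at 24 h and 1.17, 1.07, 1.04, 1.05 and 0.987 in control, -0.23 ± 0.15 (adjusted p = 0.313), and was at 0.14 ± 0.15 (adjusted p = 0.445) at 96 h. At 96 h its cocultured ratios of 1.07, 1.17, 1.21, 1.14 and 0.643 were above all of 0.936, 0.935, 0.906, 0.991 and 0.869 in control in 4 of 5 replicates. Acaca was a call upwards at 96 h with the hybridisation covariate, after cyclic loess, with equal array medians and without replicate 5.

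The genes that lengthen and desaturate fatty acids moved least. Scd, the stearoyl-CoA desaturase, had 0.602, 0.668, 0.678, 0.541 and 0.950 in coculture at 24 h, against 0.935, 0.954, 1.05, 1.29 and 1.16 in control, with an overlap from replicate 5 alone. It fell (-0.66 ± 0.18, adjusted p = 0.0232), and the call was lost without cocultured replicate 1 or 4 or without control replicate 3 or 4 (adjusted p up to 0.0731). Scd2, its relative, had ratios of 0.961, 1.02, 0.991, 0.973 and 1.02 in coculture at 24 h and 0.848, 1.204, 1.10, 0.976 and 1.17 in control, with -0.08 ± 0.10 (adjusted p = 0.605). None of its 3 probe sets passed the test, at 0.014, -0.23 and -0.026. Elovl6, which elongates saturated chains, was at -0.22 ± 0.17 (adjusted p = 0.399) at 24 h and 0.33 ± 0.17 (adjusted p = 0.114) at 96 h, and Fads1, a desaturase of polyunsaturated chains, was at -0.14 ± 0.22 (adjusted p = 0.679) and -0.29 ± 0.22 (adjusted p = 0.28). For Fads1, cocultured replicate 5 had a ratio of 0.535 at 24 h, while the other cocultured arrays had 0.981 to 1.22.

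At 96 h the 31 genes as a set no longer stood apart from the array as a whole, but the roles differed. Their medians were -0.65 to squalene, -0.42 from squalene to cholesterol, -0.28 for regulators, -0.26 in chain synthesis and -0.0076 in elongation and desaturation. Below the median of all genes lay 7 of 8, 6 of 10, 2 of 5, 2 of 4 and 0 of 4, in that order. With the hybridisation covariate the median to squalene was -0.022, and differences between roles were not tested. The 13 falls (6 of 8 to squalene, 5 of 10 from squalene to cholesterol, 1 of 5 regulators, 1 of 4 in chain synthesis and 0 of 4 in elongation and desaturation) and 1 rise compare with 41.4% of all named genes that fell and 7.44% that rose. The median of the 31 genes was -0.38, against -0.34 over all named genes, and 17 of 31 lay below the median of all genes. In 9 genes every cocultured array was below every control and in 1 gene (Srebf1) above, beside 23.6% and 4.08% of all named genes. With the replicate block 17 fell and 1 rose, beside 56.9% and 13.1%. The genes that fell at both times were 11, and all 22 that fell at 24 h had a difference nearer to 0 at 96 h. These 22 were picked by their 24 h values, which favours such a return, so it is no test of a change. Of the other genes, Dhcr7 and Acaca were nearer to 0 at 96 h. Hmgcs1, Fdft1, Srebf1, Insig2, Elovl6, Scd2 and Fads1 were further from it. The direction at 96 h depended on the scale, with a median of 0.14 after cyclic loess and 0.019 with the hybridisation covariate, against -0.14 with equal array medians. Cyclic loess gave 7 rises and 4 falls (10.2% and 33% of all named genes), equal array medians 6 rises and 9 falls (15.6% and 30.8%), and the covariate 1 rise and 1 fall, the last beside 9.39% of all named genes that rose and 9.42% that fell. The 14 calls of the fit as deposited were 8 without cocultured replicate 1 or without control replicate 2, and 9 without cocultured replicate 5 or without control replicate 3 or 4. At 24 h, by contrast, the median was -0.52 after cyclic loess, -0.57 with equal medians and -0.52 with the covariate. The median of all named genes was itself moved by the scaling, to -0.065 after cyclic loess and -0.050 with equal array medians at 24 h, and to -0.12 and -0.10 at 96 h.

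**Figure D4:**
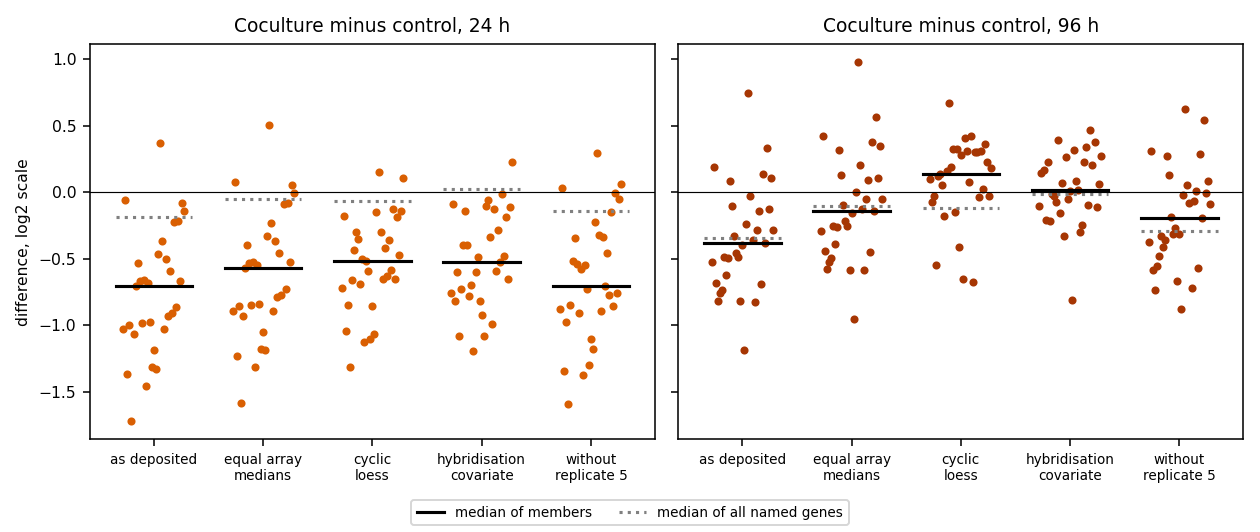
Difference between coculture and control (log2, y axis) for each of the 31 genes (points) at 24 h (left) and 96 h (right), under the deposited scale, equal array medians, cyclic loess, the hybridisation covariate and without replicate 5 (x axis). Solid lines are medians of the 31 genes and dotted lines medians of all named genes. At 24 h the solid line is below the dotted one in every setting shown, while at 96 h it lies above it after cyclic loess, with the covariate and without replicate 5.

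Replicates differed in size more than in direction. The mean difference of the 31 genes within same-numbered pairs at 24 h was -0.64, -0.60, -0.61, -0.71 and -1.197 (log2). At 96 h it was -0.30, -0.030, -0.098, -0.33 and -0.96. After taking off the median of all genes in the same pair, the 24 h values were -0.47, -0.49, -0.47, -0.57 and -0.81, and those at 96 h were 0.056, 0.14, 0.10, 0.0031 and -0.42. For the mean of the 31 genes, the shortfall beyond the whole array was thus present in every pair at 24 h. At 96 h it was present in replicate 5 alone, but the roles differed. Steps to squalene were at -0.53, -0.14, -0.32, -0.59 and -1.19 in the pairs at 96 h. The median of all genes was at -0.36, -0.17, -0.20, -0.33 and -0.54. These steps lay below it in every pair but that of replicate 2. Elongation and desaturation lay above it in every pair, at -0.045, 0.28, 0.26, 0.046 and -0.50. Without replicate 5 in all groups, 23 genes fell and none rose at 24 h, beside 24.7% and 7.62% of all named genes. At 96 h 13 fell and 5 rose without it, beside 49.1% and 11.8%, the rises being Hmgcs1, Lss, Srebf1, Acaca and Elovl6.

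**Figure D5:**
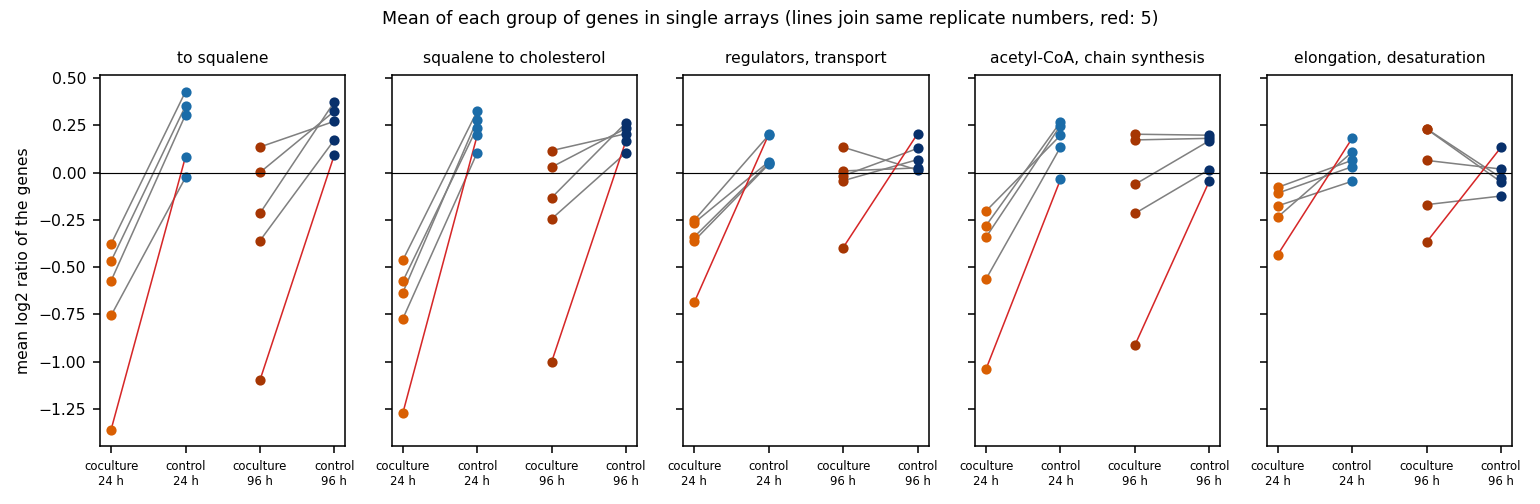
Mean log2 ratio (y axis) of the genes of each role in single arrays, for coculture and control at 24 h and at 96 h (x axis). Points are arrays, and lines join the cocultured and control array of the same replicate number, in red for replicate 5. For both parts of the sterol path every line at 24 h slopes up towards control, and the lines at 96 h are flatter in all 5 replicates, with that of replicate 5 the steepest at both times.

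The change of the coculture effect between the times was tested as 96 h minus 24 h. None of the 31 genes passed, beside 0.0123% of all named genes that rose and 0.0369% that fell in this contrast at an adjusted p under 0.05. An unadjusted p under 0.05 was reached by 9 of the 31, and the share of all named genes at that threshold was not counted. The median over the 31 genes was 0.37, against -0.16 over all named genes, and 28 of 31 were above 0. The estimates with the smallest p were Tm7sf2 at 1.12 ± 0.23 (adjusted p = 0.0788) and Lss at 1.07 ± 0.23 (adjusted p = 0.085). Under the replicate block 5 genes passed, all upwards, where 1.35% of all named genes rose and 9.33% fell. These were Tm7sf2 (adjusted p = 0.000589), Ebp (0.00239), Lss (0.00299), Mvd (0.00678) and Mvk (0.00988). The same 5 passed with the hybridisation covariate (0.504% of all named genes rose and 0.455% fell). A single gene passed without cocultured replicate 5 at 24 h, and 3 passed without cocultured replicate 5 at 96 h.

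Within the cocultures, 4 genes were higher at 96 h than at 24 h and none was lower, beside 0.971% of all named genes that rose and 1.34% that fell. They were Lss at 0.78 ± 0.16 (adjusted p = 0.0126), Ebp at 0.73 ± 0.16 (adjusted p = 0.0184), Tm7sf2 at 0.70 ± 0.16 (adjusted p = 0.0289) and Insig1 at 0.66 ± 0.17 (adjusted p = 0.0444). The median over the 31 genes was 0.40, against -0.12 over all named genes, and 29 of 31 were above 0. The count was 14 with the replicate block (beside 5.75% of all genes that rose and 20.5% that fell), 17 with the hybridisation covariate (6.48% and 6.2%), 18 without replicate 5 in all groups (4.23% and 10.9%), and 10 without cocultured replicate 5 at 96 h alone. With the cocultured groups fitted alone none of the 4 passed, where 0.0246% of all named genes rose and 0.0861% fell. The count was 1 without cocultured replicate 1 at 24 h or without cocultured replicate 3 or 4 at 96 h, and 2 without cocultured replicate 4 at 24 h or without cocultured replicate 1 or 2 at 96 h. Of the 8 measured astrocyte markers, 3 also rose with time in the cocultures, with a median of 0.59 over the 8, Gfap at 1.63 and Apoe, the apolipoprotein E gene, at 1.38 (adjusted p = 0.0392), and their part in these values was not tested. In the controls no gene differed between 96 h and 24 h in limma's test, and 1 (Tm7sf2, at -0.42 ± 0.16) had an unadjusted p under 0.05, beside calls in 0.283% (up) and 0.135% (down) of all named genes. Under the replicate block Tm7sf2 fell with time in controls (adjusted p = 0.025), where 5.38% of all genes rose and 1.45% fell, and 1 gene fell with the hybridisation covariate, where 2.69% rose and 1.08% fell.

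Genes next to these paths were read from lists that, like the 33 genes, were chosen with earlier results of these data known. Of 15 measured genes of 21 listed for other fatty acid elongation, activation and supply, 3 fell at 24 h (beside 7.71% of all named genes) and 7 at 96 h (beside 41.4%), and none rose. Slc25a1, the carrier that brings citrate out of mitochondria for Acly, was at -1.22 ± 0.27 (adjusted p = 0.00728) and -1.32 ± 0.27 (adjusted p = 0.0012). Hsd17b12, the keto reductase of chain elongation, was at -0.79 ± 0.13 (adjusted p = 0.000501) and -0.69 ± 0.13 (adjusted p = 0.000561). These genes thus fell at both times, also with the hybridisation covariate, while Hacd3, a dehydratase of the same cycle, and Acsl5, which activates fatty acids, passed the test at 96 h and not at 24 h, at -1.47 ± 0.37 (adjusted p = 0.00386) and -0.89 ± 0.21 (adjusted p = 0.00267). The covariate ended both of these calls, with adjusted p = 0.293 for Hacd3 and 0.167 for Acsl5.

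Genes of sterol export and fatty acid breakdown changed in both directions at 96 h. Of 12 measured genes of 18 listed for sterol efflux, esterification, turnover and lysosomal release, 1 fell at 24 h, a share near the 7.71% of all named genes. At 96 h 5 fell and 1 rose, shares near the 41.4% and 7.44% of all named genes. Abca1, the pump that loads cholesterol onto apolipoproteins, was at 0.84 ± 0.28 (adjusted p = 0.0618, or 0.000194 with the replicate block) at 24 h and rose at 96 h (1.17 ± 0.28, adjusted p = 0.00338). With the hybridisation covariate its adjusted p was 0.296 at 24 h and 0.241 at 96 h. Osbpl1a, an oxysterol-binding protein relative, fell at both times, at -1.09 ± 0.28 (adjusted p = 0.0203) and -1.37 ± 0.28 (adjusted p = 0.00128). Vldlr, a lipoprotein receptor, fell at 96 h (-1.19 ± 0.34, adjusted p = 0.00796), as did Soat1, which esterifies cholesterol (-0.47 ± 0.14, adjusted p = 0.0127). The covariate ended the calls of Osbpl1a (adjusted p = 0.0576 at 24 h and 0.0707 at 96 h), Vldlr (0.687) and Soat1 (0.0896). Of 12 measured genes of 17 listed for fatty acid oxidation, none was called at 24 h, while 5 had an unadjusted p under 0.05 and 4 rose and 5 fell with the replicate block, beside 9.2% and 38.7% of all named genes. At 96 h 3 rose and 6 fell, beside 7.44% and 41.4%. Cpt1a, which passes fatty acids into mitochondria, was at 0.63 ± 0.21 (adjusted p = 0.0589) at 24 h and rose at 96 h (1.54 ± 0.21, adjusted p = 2.68e-05). Decr1, which acts on unsaturated chains, rose at 96 h (0.84 ± 0.14, adjusted p = 0.000167), while Hadh (-0.86 ± 0.19, adjusted p = 0.002) and Hadhb (-1.10 ± 0.25, adjusted p = 0.002), enzymes of the oxidation cycle, fell. With the covariate Cpt1a and Decr1 still rose at 96 h, and Hadh (adjusted p = 0.0924) and Hadhb (adjusted p = 0.0721) no longer passed. Beside these, Gfap, an astrocyte gene, was at 0.64 ± 0.24 (adjusted p = 0.0834) at 24 h and rose at 96 h (2.32 ± 0.24, adjusted p = 9.12e-07). Its part in the values of Abca1, Cpt1a and Decr1 was not tested.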

How the data were processed

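As deposited, each value is a linear ratio of the RMA signal to that probe set's median across the 20 arrays, per the file headers, and 31071 of 31099 probe sets had a median of 1 within 0.001. Per the submitters' processing notes MAS5 and RMA were used. The chip definition file is not named in the sources used here. The annotated table held 17243 probe sets, per the file headers those called present in at least 10 arrays. Names were updated through RefSeq's GRCr8 gene table, 11147 by Entrez identifier, 108 by symbol and 64 by older symbol, while 66 kept the deposited symbol, 219 matched several genes and 5639 none, which left 11385 probe sets of 8134 genes. The authors' group averages equalled geometric means of the arrays within 0.00094.

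Ratios were turned to log2, averaged over a gene's probe sets and modelled in limma 3.58.1 (R 4.3.3) with a mean for each of the 4 groups and 16 residual degrees of freedom over the 20 arrays. Calls were made at a Benjamini-Hochberg adjusted p under 0.05 over the 8134 genes. No filter on dim signal beyond the present calls was possible. The fit was tested on simulated data with known changes. Their noise was drawn independently for each array, so that test did not cover deviations that arrays share. Same-numbered arrays deviated together (30 pairs, correlation of deviations from group means 0.244 or more, median 0.502, against a median of -0.21 in the other 120 pairs), so the replicate numbers were taken to pair the arrays, and the number was entered as a block in a further fit. The labels call the replicates biological. Other alternatives were a random block, the hybridisation controls as covariate, cyclic loess, equal array medians, the first probe set, probe sets tested singly, a robust prior, array weights, the compared groups alone, a fold of at least 1.5, and each array left out. Leaving out replicate 5 in all groups was chosen after seeing the data.

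The genes, the other lists and the motifs were chosen with earlier results of these data known. All measured members could be named, with values in every array for at least the 3 of each role with the smallest p and for those the block called in the change between times, and from other lists up to 4 genes with the smallest p. Promoters came from RefSeq, and the 7 genes without one there were Acaca, Pmvk, Stard4, Fdft1, Fasn, Sqle and Elovl6.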

Additional observations from a re-analysis of the deposited data

Results flagged for a closer look

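A single array lay far from the other 4 of its group, by Dixon's test, in 19 of the 124 combinations of 31 genes and 4 groups. Chance flags about 1 in 20 groups, and the genes of an array are not independent. The array was cocultured replicate 5, the lowest of its group, in 13 of them. At 24 h its ratios were 0.302 for Idi1, 0.418 for Fdps, 0.544 for Msmo1, 0.337 for Stard4, 0.457 for Acly and 0.535 for Fads1. At 96 h they were 0.700 for Cyp51, 0.530 for Tm7sf2, 0.323 for Sc5d, 0.521 for Insig1, 0.554 for Acly, 0.643 for Acaca and 0.836 for Elovl6. In the controls at 24 h the outlying arrays were the lowest, replicate 1 for Acat2 (0.770) and Dhcr7 (0.868) and replicate 5 for Tm7sf2 (1.21) and Fasn (0.922). In the controls at 96 h they were the highest, replicate 5 for Srebf2 (1.065) and Insig1 (1.455). No gene's coculture effect passed limma's test of the difference between the times. An unadjusted p under 0.05 was reached by 9, a count without its share over all named genes.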

How the results depend on the processing

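Counts of called genes are given for the 31 genes, and the cause of a change was not tested. At 24 h the 22 calls became 17 to 22 without 1 array at a time and 1 with the hybridisation covariate and the replicate block together (median difference -0.89, against -0.71, with 27 of all 8134 genes falling), and stayed within 1.5 times under the other settings, with 25 falls and 1 rise under the replicate block. At 96 h the 14 calls became 9 at a change of at least 1.5-fold, 2 with the covariate, 0 with covariate and block, and 8 to 16 without 1 array, with 18 under the block. For 96 h minus 24 h the count of 0 became 5 with the replicate block, fixed or random, 5 with the covariate, 9 after cyclic loess, 3 with equal array medians, 21 with array weights, 7 without replicate 5, and 0 to 3 without 1 array. Of all 8134 genes, 81 rose and 388 fell with the random block, 28 and 16 after cyclic loess, and 17 and 12 with equal medians. With array weights 348 of them rose and 932 fell, and 50 rose and 74 fell without replicate 5. For time in cocultures the 4 calls became 14 with the fixed and 16 with the random block, 17 with the covariate, 23 after cyclic loess, 17 with equal medians, 24 with array weights, 0 with the compared groups alone, 18 without replicate 5, and 1 to 10 without 1 array. Of all 8134 genes, 445 rose and 1487 fell there with the random block, and 296 and 273 after cyclic loess. With equal medians 264 rose and 264 fell, and with array weights 812 rose and 1948 fell. For time in controls the count of 0 became 1 with either block, the covariate, both together, equal medians or without replicate 5, and 6 with array weights, and stayed 0 without any 1 array. Array weights called 802 of all 8134 genes up and 584 down for time in controls. Genes that fell at 96 h turned upwards after cyclic loess (Acat2 at 0.098, Idi1 at 0.14, Fdps at 0.054, Sqle at 0.16, Ebp at 0.28), with the covariate (Mvk at 0.17, Ebp at 0.012) and with covariate and block (Mvk at 0.058). The replicate block ended no call, and beside the added calls named with their genes it added 10 in time in cocultures. Ratios to a median hold no signal over background, so limits of dim probe sets are unknown.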

Other observations

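Genes that process the SREBPs or branch off from farnesyl pyrophosphate were listed beside the 2 paths. Of 6 measured genes of 7 listed for SREBP processing, none was called at 24 h in limma's fit, 1 had an unadjusted p under 0.05, and 4 fell with the replicate block, among 38.7% of all named genes. At 96 h 4 fell, among 41.4% of all named genes. Scap, which escorts the SREBPs to the Golgi, was at -0.56 ± 0.25 (adjusted p = 0.148, or 0.00112 with the block) at 24 h and -0.65 ± 0.25 (adjusted p = 0.0423) at 96 h. Vcp, an ATPase that draws proteins out of the membrane for degradation, was at -0.67 ± 0.23 (adjusted p = 0.0248) at 96 h. With the hybridisation covariate the 96 h values were adjusted p = 0.498 for Scap and 0.876 for Vcp.

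Of 9 measured genes of 11 listed for branches from farnesyl pyrophosphate, 2 fell at 24 h, beside 7.71% of all named genes, and at 96 h 4 fell and 1 rose, beside 41.4% and 7.44%. Nus1, a subunit of the enzyme that makes dolichol precursors, was at -0.60 ± 0.18 (adjusted p = 0.0416) at 24 h and -0.92 ± 0.18 (adjusted p = 0.000875) at 96 h, and Coq2, of ubiquinone synthesis, was at -0.64 ± 0.19 (adjusted p = 0.035) and -0.73 ± 0.19 (adjusted p = 0.00477). Dhdds, the partner of Nus1, rose at 96 h (0.58 ± 0.21, adjusted p = 0.0259), and with the hybridisation covariate its adjusted p was 0.762. Pggt1b, which attaches geranylgeranyl groups to proteins, fell at 96 h (-1.13 ± 0.33, adjusted p = 0.0104). The covariate ended this call (adjusted p = 0.929), those of Coq2 (0.135 at 24 h and 0.256 at 96 h) and that of Nus1 at 24 h (0.145).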
